A study of Mus musculus and Homo sapiens with 18 samples.

Results

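Relapsed mouse bladder tumours and a mouse bladder tumour line carrying a control guide were compared gene by gene. The members are 6 of the 18 RNA-seq samples of the study: the 3 relapsed tumour libraries, taken from the table of tumour counts, and the 3 libraries of the CUUC-G line with the control guide sgScr, taken from the table of CUUC-G counts. They were chosen by group label and table column, with no measured value used, and joined on gene identifier over 55858 genes. The remaining libraries are 3 control tumours, 3 CUUC-G libraries with the Igfbp5 guide, called sgIgfbp5 here, and 6 libraries of a human line that were not analysed here.

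The relapsed libraries carry the labels GEMM, a genetically engineered mouse model, and chemotherapy, which the labels' protocol gives as cisplatin with gemcitabine. The control tumours are GEMM samples with the label control, and the protocol names a vehicle. The sgScr libraries are of CUUC-G, a GEMM line in the labels, with a control guide, and the sgIgfbp5 libraries are of the same line with a guide to Igfbp5. The labels name no driver allele, strain, age, dose or time for any of the 4 groups, and do not say whether replicates came from separate animals or cultures. The p-values therefore measure the spread between these libraries, which may be technical. Each group sits in 1 table, so the group and the table (with whatever preparation or processing went with it) cannot be told apart.

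Cisplatin binds DNA and links neighbouring bases or strands, and gemcitabine is a nucleoside analogue that blocks DNA synthesis; the pair is a standard treatment of bladder cancer. A scrambled or control guide brings Cas9 and a guide into a cell without a target gene, so a line carrying it serves as the reference for a line edited at a chosen gene. A line of this kind differs from a tumour in having no host stroma, vessels or blood cells, and tumour RNA normally carries transcripts of all of these.

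The 6 libraries held 19466904 to 20729980 estimated counts each, and all 12 mouse libraries 18964787 to 21756923. Levels are given below as CPM, the usual depth-scaled count, after TMM scaling over the 12 libraries, and differences as log2 fold changes of relapsed minus sgScr from edgeR's quasi-likelihood test. A gene is called at a Benjamini-Hochberg adjusted p under 0.05 over the 14243 genes that passed the low-count filter, and counted as alike when the 95% interval of its log2 fold change lies within 1.5-fold in both directions. A gene can be both called and alike, which means a small difference measured precisely.

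Markers of host blood and vessel cells were as low in the libraries labelled as relapsed tumours as in the line. Ptprc (CD45, on all white blood cells), Adgre1 and C1qa (macrophages) and Itgam were at 0 in each of the 6 libraries. The summed level of the 8 T and NK cell markers ran from 0.708 to 1.26 CPM in relapsed and from 1.34 to 1.80 CPM in sgScr, with 5 of the 8 at 0 in all 6 libraries. The 7 neutrophil markers summed to 0.894 to 1.51 and 1.77 to 2.16 CPM, and the 5 erythroid markers to at most 0.101 and 0.205 CPM. Of the 11 macrophage markers, 6 were at 0 in all 6 libraries, and the sums of 27.3 to 27.9 and 26.0 to 28.1 CPM came mainly from Cd14, at 20.8 to 21.8 in relapsed and 20.01 to 22.7 in sgScr. The endothelial list summed to 179 to 191 and 172 to 179 CPM, almost all of it from the VEGF receptors Kdr and Flt1; Pecam1, Cdh5, Tek, Vwf and Cldn5 stayed under 1 CPM and Emcn at 0. In bulk samples fewer cells of a type and less RNA per cell cannot be told apart, but at these levels the libraries labelled as relapsed tumours held close to no RNA of white blood cells or vessel lining. The control tumours were as low or lower, at 0.0511 to 0.213 CPM for the T and NK list, 5.21 to 5.65 for the macrophage list and 16.7 to 17.3 for the endothelial list. The labels name GEMM under the tag for a cell line in all 4 groups, while the protocol speaks of harvested tumours. Whether the tumour libraries were made from tissue or from cultured tumour cells cannot be told from these sources, and the name relapsed tumour is used here as a label only. Tested in these 5 lists were 1 T and NK cell, 4 macrophage, 1 neutrophil, 3 endothelial and 0 erythroid markers. Of them 0 were called, beside 1.73% higher and 3.98% lower of all tested genes, and so few tested genes do not show likeness.

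The labelled tissue is bladder. The urothelial plaque genes Upk2 and Upk3a were at or near 0 in all 6 libraries, and so were Krt20 of the umbrella layer and Krt5 of the basal layer. Upk1b was at 95.9, 99.7 and 105 CPM in relapsed and 86.9, 83.6 and 97.5 CPM in sgScr, and Upk3b at 119.6 to 128 and 132 to 141 CPM. Epcam, the usual epithelial surface marker, stayed under 0.5 CPM, while the simple keratin genes Krt8, Krt18 and Krt19 and the fibroblast collagen gene Col1a1 were all expressed. Col1a1 was at 5532, 5489.9 and 5635 CPM in relapsed and 5964, 6015 and 5666 CPM in sgScr. Acta2 (smooth muscle actin) was at 906, 926 and 923 against 918, 987 and 1053 CPM, Pdgfra at 106 to 113 against 98.8 to 109 CPM, and Cdh1 (E-cadherin) at 11.98 to 12.4 against 11.7 to 13.03 CPM. The epithelial markers summed to 496 to 516 CPM in relapsed and 536 to 615 CPM in sgScr, and the fibroblast markers to 8633 to 8814 and 9014 to 9474 CPM. Of 5 tested epithelial markers 2 were called lower, and of 7 tested fibroblast markers 2, beside 3.98% of all tested genes. With an offset for transcript length and GC content 0 and 2 were lower. Both groups thus had a similar mixed pattern, with small differences in level. Upk2, Upk3a, Krt20 and Krt5 were at or near 0, while Upk1b, Upk3b, some keratins and mesenchymal transcripts were expressed.

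The 3 sgScr libraries lay further from each other than the 3 relapsed libraries did. Over the 9275 genes with a mean of at least 200 counts, the median absolute log2 ratio between 2 relapsed libraries was 0.062 to 0.064. Within sgScr it was 0.104 between replicates 1 and 2, 0.082 between 2 and 3 and 0.142 between 1 and 3. The relapsed libraries were 0.092 to 0.101 from sgScr replicate 1, 0.129 to 0.137 from replicate 2 and 0.153 to 0.159 from replicate 3. By this median sgScr replicate 1 was nearer to each relapsed library than to its own replicates 2 and 3. By the SD of the log2 ratios it was nearer to sgScr replicate 2 (0.196) than to any relapsed library (0.261 to 0.270), and the share of genes over 1.5-fold apart was also smaller, 0.345% against 0.561% to 0.593%. Between relapsed libraries the mean chi-square of the counts per gene was 2.82 to 3.63, where sampling alone gives about 1. Whether libraries of a group were technical repeats cannot be told from this, since the division of shared reads also varies the estimated counts.

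Across the 14243 genes, 10245 (71.9%) were alike in relapsed tumours and the sgScr line. The test called 247 genes (1.73%) higher and 567 (3.98%) lower in relapsed, and 560 of these 814 were also alike, so most calls were small. The median fold among the called genes was 1.19 for the higher and 1.27 for the lower ones. Only 111 genes (0.779%) were called with a fold of at least 1.5, 17 of them higher and 94 lower, and 43 (0.302%) with a fold of at least 2, 13 higher and 30 lower. The median absolute log2 fold change was 0.13 and the 90th percentile 0.41. For 3744 genes neither statement could be made, since they were not called and their interval reached past 1.5-fold.

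The number of calls rested on which libraries entered. Leaving out sgScr replicate 1 gave 1525 higher and 1852 lower, and leaving out sgScr replicate 2 gave 18 and 34; without relapsed replicate 1, 2 or 3 the counts were 21 and 43, 26 and 73, and 27 and 52. Without sgScr replicate 3 they were 227 and 380, while the number of alike genes stayed between 9697 and 10169 in all 6 fits. The share of calls that were higher also moved with the scaling, from 247 higher and 567 lower to 344 and 484 with library size alone and to 317 and 397 with an offset for transcript length and GC content.

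The other pair of groups across the same 2 tables, control tumours against CUUC-G sgIgfbp5, shows how far groups in these tables can lie apart. There, 4691 of 14269 genes (32.9%) were higher and 5095 (35.7%) lower in the control tumours, and the median absolute log2 fold change was 0.54, with a 90th percentile of 1.86. The difference between the 2 cross-table differences, tested on the 12 libraries together, was called for 7774 of 15366 genes (50.6%).

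**Figure D1:**
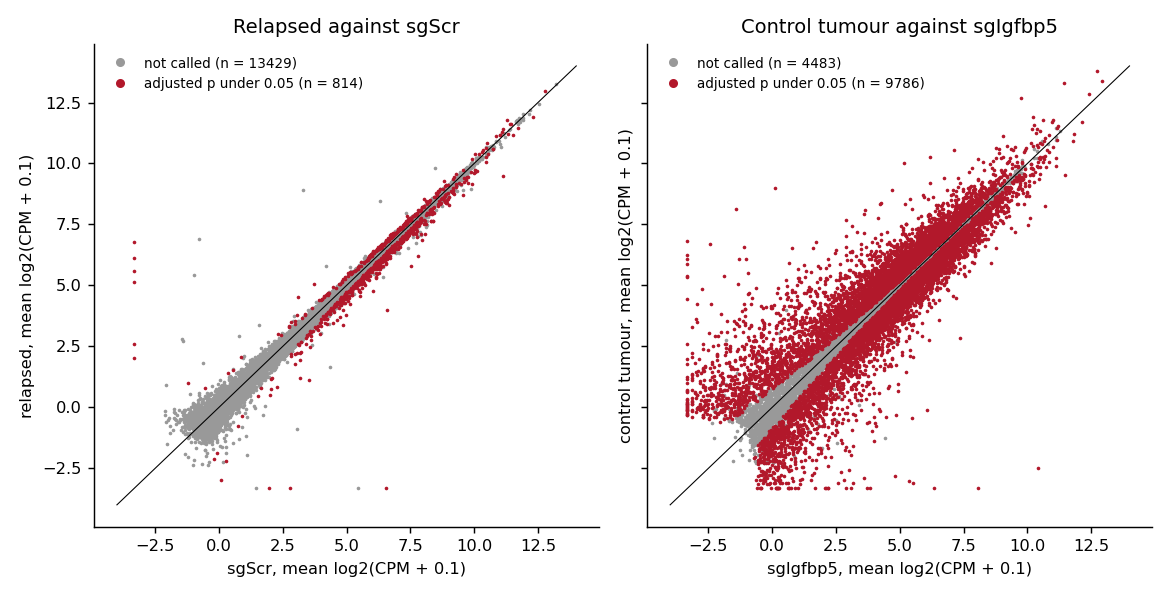
Mean log2(CPM + 0.1) of each tested gene in relapsed tumours against CUUC-G sgScr (left, 14243 genes) and in control tumours against CUUC-G sgIgfbp5 (right, 14269 genes); red points have an adjusted p under 0.05 and the line marks equal levels. The left cloud hugs the line with 814 red points, and the right one spreads widely around it.

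Few genes were on in one of the groups and off in the other. At 1 CPM or more in all 3 libraries of a group, 12477 genes were on in relapsed and 12476 in sgScr. Being on in all 3 relapsed libraries and under 0.1 CPM in all 3 sgScr libraries held for 6 genes, and the reverse for 5, with 0 protein-coding genes among these 11. The same count between control tumours and sgIgfbp5 was 50 (38 of them protein-coding) and 29 (23 protein-coding). Between the relapsed and the control tumours, which sit in the same table, it was 74 (61 protein-coding) and 28 (23 protein-coding).

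The genes that set relapsed tumours furthest apart from control tumours were high in both relapsed and sgScr or low in both. They were taken as the 8 protein-coding genes with the largest and the 8 with the smallest ratio of relapsed to control tumours, so their gap to the control tumours is a description. Of the 8 relapsed-high genes, all 8 were alike in relapsed and sgScr, beside 71.9% of all tested genes. A small difference was called in 2 of them, beside 1.73% higher and 3.98% lower of all tested genes. Cck (chr9:121489824-121495694 on GRCm38, minus strand), the gene of the gut and brain peptide cholecystokinin, was at 109.7, 104 and 102 CPM in relapsed and 106, 117 and 143 CPM in sgScr. The groups overlapped (log2 fold change -0.22, SE 0.09, adjusted p = 0.201 in edgeR), and Cck was at 0 in each control tumour and each sgIgfbp5 library. Mael (chr1:166201201-166238747), which acts in transposon silencing in the germ line, was at 53.7, 51.5 and 52.7 CPM in relapsed and 48.1, 53.5 and 57.3 CPM in sgScr, at 0 in the control tumours and at 6.91 to 7.64 CPM in sgIgfbp5. Its log2 fold change was -0.02 (95% interval -0.17 to 0.14). Pcdh17, a protocadherin of cell adhesion, was at 30.8 to 34.6 and 26.98 to 33.6 CPM, against 0 in the control tumours and 72.5 to 85.5 CPM in sgIgfbp5. Mmp3, the matrix protease stromelysin, was at 89.02 to 95.6 and 81.7 to 96.99 CPM, and at most 0.160 CPM in the control tumours.

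The chemokine gene Cxcl5 (chr5:90759360-90761624), which codes for a neutrophil attractant, was among the 2 of these 8 that passed the test, at a small size. It was at 871, 834 and 849 CPM in relapsed and 722, 741 and 790.4 CPM in sgScr, so every relapsed library was above every sgScr library. The log2 fold change was 0.17 (SE 0.04, adjusted p = 0.0371, edgeR), and control tumours stood at 0.0533 to 0.204 CPM. Krt8, of the simple epithelial keratin pair, was the other called gene, at 141 to 147 against 152 to 172 CPM (-0.20, adjusted p = 0.0476, edgeR). The 2 calls held in 2 and 1 of the 6 fits that left out a library, with adjusted p-values of up to 0.236 and 0.26 in edgeR. Xlr and the haptoglobin gene Hp completed the 8, at 28.1 to 29.9 against 23.7 to 25.2 CPM and at 36.5 to 39.0 against 38.0 to 47.5 CPM, with adjusted p-values of 0.0783 and 0.296 in edgeR.

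The 8 genes that were high in control tumours were low in both groups, and of these 6 did not pass the low-count filter and the other 2, Cdsn and Adamtsl3, were neither called nor alike. Cdsn (chr17:35552128-35557180), the gene of corneodesmosin in cornified skin, was at 0.860, 1.26 and 0.844 CPM in relapsed and 1.39, 1.24 and 1.98 CPM in sgScr (log2 fold change -0.64, 95% interval -1.37 to 0.09). It was at 684 to 708 CPM in control tumours and 699 to 832 CPM in sgIgfbp5, so here the 4 groups fell into 2 levels that crossed the tables. Gpr141, Adamtsl3, Ostn and Dthd1 stayed under 0.7 CPM in all 6 libraries, against 33.6 to 119.9 CPM in the control tumours and 3.09 to 22.2 CPM in sgIgfbp5. The remaining 3 were the Y-linked genes Ddx3y, Eif2s3y and Uty.

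**Figure D2:**
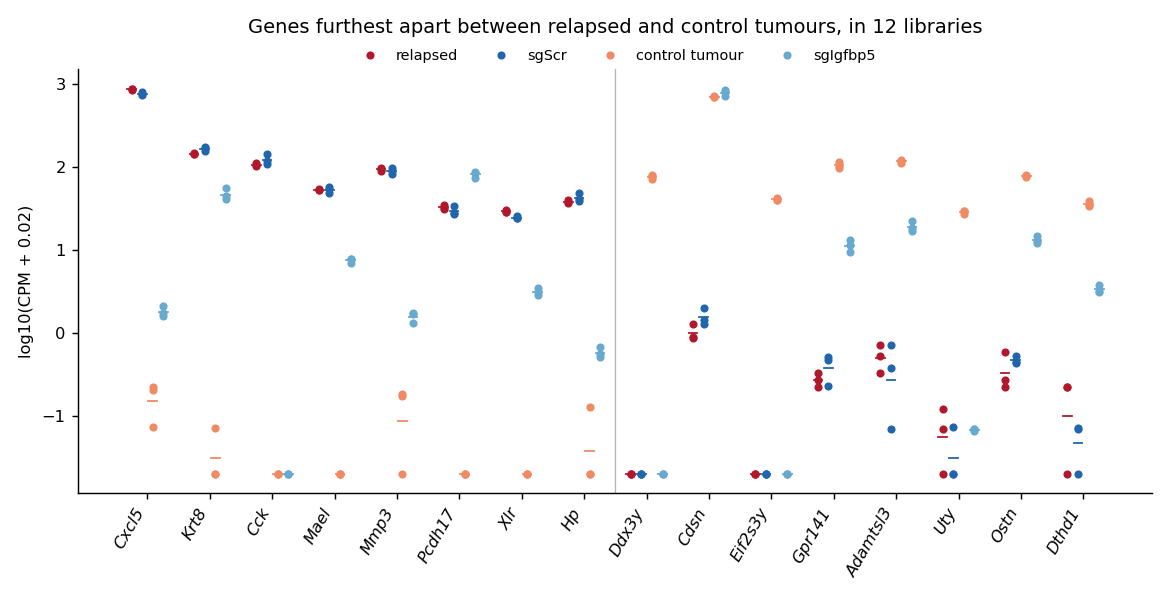
Levels, as log10(CPM + 0.02), of the 16 protein-coding genes furthest apart between relapsed and control tumours in the 12 mouse libraries; points are libraries and short bars the group mean of the plotted values. Relapsed and sgScr points lie on the same side of the gap for every gene, with Cck near 100 CPM in both and at 0 elsewhere, and Cdsn under 2 CPM in both and near 700 CPM elsewhere.

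Genes of the sex chromosomes put relapsed with sgScr again, but here sgIgfbp5 stood with them and the control tumours apart. Ddx3y, an RNA helicase gene of the Y chromosome (chrY:1260771-1286629), was at 0 in all relapsed, sgScr and sgIgfbp5 libraries and at 71.0, 78.8 and 76.3 CPM in the control tumours. Eif2s3y was at 0 in the same 9 libraries, and the summed level of the 7 Y-linked genes was 0.201 to 0.596 CPM in relapsed, 0.398 to 0.589 in sgScr and 163 to 177 in control tumours. Xist (chrX:103460366-103483254), the RNA that coats the inactive X chromosome, was at 504, 499 and 466 CPM in relapsed and 512, 368 and 338 CPM in sgScr. The 2 groups overlapped (log2 fold change 0.26, 95% interval -0.20 to 0.72, adjusted p = 0.471, edgeR), while Xist was at most 0.160 CPM in control tumours and 971 to 1667 CPM in sgIgfbp5. The relapsed and CUUC-G libraries thus held Xist with next to no Y-linked RNA, and the control tumours Y-linked RNA with next to no Xist.

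By chromosome, the median difference between relapsed and sgScr libraries stayed close to 0. The median log2 fold change of the tested genes lay between -0.05 and 0.07 on each of the 20 chromosomes, and between -0.01 and 0.02 with the length and GC offset. In control tumours against sgIgfbp5 it ran from -0.48 on chromosome 6 to 0.28 on chromosome 14, with -0.35 on chromosome 12 and -0.30 on chromosome 19. Calls in relapsed against sgScr were less even than the medians. On X 20 of 446 tested genes were higher and 7 lower, and on chromosome 19 10 of 517 were higher and 38 lower. The shares over all tested genes were 1.73% higher and 3.98% lower.

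**Figure D3:**
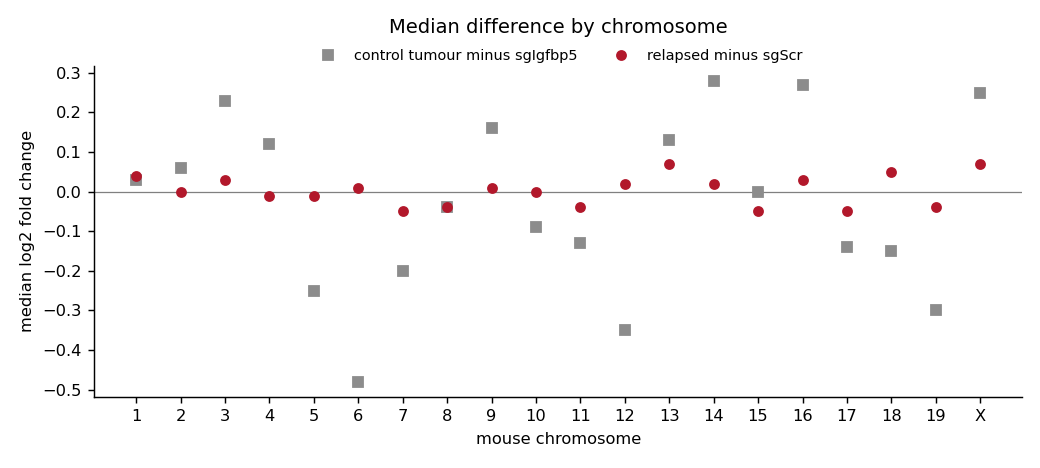
Median log2 fold change of the tested genes on each mouse chromosome, for relapsed minus sgScr (red circles) and control tumour minus sgIgfbp5 (grey squares). The red circles stay within -0.05 and 0.07, and the grey squares range from -0.48 to 0.28.

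Igfbp5 (chr1:72857932-72874884, minus strand), the gene targeted in the edited line, was low in both groups. This secreted protein binds insulin-like growth factors. It was at 1.82, 3.22 and 2.43 CPM in relapsed and 1.03, 2.54 and 2.30 CPM in sgScr, and the groups overlapped. The log2 fold change was 0.34 with a 95% interval of -0.37 to 1.05 (adjusted p = 0.589, edgeR), so neither a difference nor a level within 1.5-fold was shown. Igfbp5 was at 0.186 to 0.906 CPM in control tumours and 0.392 to 0.580 CPM in sgIgfbp5.

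Of the 23 genes in the insulin-like growth factor list, 20 were tested, 0 were higher, 1 was lower and 17 were alike. The median log2 fold change of the list was 0.06, beside 0.00 over all tested genes, of which 1.73% were higher and 3.98% lower. Among the ligands, Igf1 was at 7.55 to 9.58 CPM in relapsed and 7.13 to 8.41 in sgScr, and Igf2 at 11.2 to 14.1 and 12.9 to 14.2. The receptors Igf1r and Insr were also alike, with log2 fold changes of 0.02 and 0.20. The called gene was Igfbp4, the gene of another binding protein, at 680.0, 648 and 675 CPM in relapsed against 748, 771 and 841 CPM in sgScr (log2 fold change -0.24, SE 0.05, adjusted p = 0.0136, edgeR). The call held in 2 of the 6 fits that left out a library, with an adjusted p of up to 0.121 in edgeR. Igfbp6 was at 94.8 to 98.6 against 98.8 to 131 CPM and Stc2, an inhibitor of the protease that cleaves Igfbp4, at 58.7 to 62.3 against 66.0 to 70.0 CPM. Neither passed the test (adjusted p = 0.073 and 0.121, edgeR), nor did Stc1, Htra1 and Insr.

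Pathway lists were close to level between the groups. There were 54 lists, 44 of them with at least 5 tested genes, and 39 of the 44 had no gene called with a fold of at least 1.5. In 9 of the 44 lists no gene was called at all, and the list medians ran from -0.30 to 0.25. YAP and TAZ targets (16 tested), fatty acid synthesis (16) and immediate early genes (29) had 0 calls, with 16, 15 and 26 genes alike, and 2, 1 and 4 calls with the length and GC offset. Of 30 genes of the G2 and M phases all 30 were alike, and 2 were called higher: the spindle checkpoint kinase gene Bub1 (76.1, 77.4 and 71.5 CPM against 61.6, 59.9 and 58.1, log2 fold change 0.32) and the topoisomerase gene Top2a (549 to 555 against 446 to 517 CPM, 0.20). All 34 DNA replication genes were alike, with 1 lower. These counts stand beside 1.73% higher and 3.98% lower of all tested genes.

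Lists tied to the treatment held few calls, to be read against the 1.73% higher and 3.98% lower of all tested genes. Among 28 tested p53 targets 0 were higher, 3 were lower (Bax, Aen and Rps27l) and 25 were alike. Bax, which codes for a pore-forming protein of apoptosis, was at 62.0 to 65.1 CPM in relapsed and 73.0 to 86.0 CPM in sgScr (-0.37, adjusted p = 0.0106, edgeR). Of 33 genes of crosslink and recombination repair 1 was higher (Brip1, a helicase gene of the Fanconi pathway, 0.30), 1 was lower (Ercc1, of nucleotide excision, -0.36) and 31 were alike. Of 24 ABC transporter genes 1 was higher, Abce1, which acts in ribosome recycling and is not a drug pump, and 21 were alike. Of 19 genes of gemcitabine uptake and metabolism 2 were lower, Nme2 (-0.32) and Nt5c (-0.43), and 17 were alike. With the length and GC offset 0 genes of the p53, gemcitabine and ABC transporter lists were called, and in the repair list 0 were higher and 1 lower.

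The list of cisplatin and metal handling had the lowest median, -0.30 over 10 tested genes, with 2 lower and 5 alike, beside 3.98% lower of all tested genes. Ccs, the copper chaperone of superoxide dismutase, was at 12.3, 9.21 and 10.2 CPM in relapsed and 15.9, 18.5 and 21.8 CPM in sgScr, with no overlap (log2 fold change -0.83, SE 0.14, adjusted p = 0.00646, edgeR). The metallothionein gene Mt1 was at 188, 181 and 187 CPM against 223, 252 and 311 CPM (-0.51, adjusted p = 0.042, edgeR). The calls held in 3 and 2 of the 6 fits that left out a library, with adjusted p-values of up to 0.0738 and 0.147 in edgeR, and Mt1 was at -0.11 with the length and GC offset. The copper and cisplatin importer gene Slc31a1 was alike (0.08), and so was the exporter gene Atp7a (0.05).

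In the collagen and matrix list 2 of 28 genes were higher, 6 were lower and 27 were alike, with a median of -0.05. This and the next 2 lists stand beside 1.73% higher and 3.98% lower of all tested genes. The higher ones were the crosslinking enzyme gene Lox (1518, 1523 and 1467 CPM against 1357, 1317 and 1263, log2 fold change 0.19) and the proteoglycan gene Bgn (0.18). The lower ones included Col1a2 (-0.13), Col3a1 (-0.15), Sparc (-0.14) and Col16a1 (-0.38). With the offset 0 were higher and 8 lower, limma on TPM called 0, and without any 1 relapsed library or without sgScr replicate 2 the counts were 0 higher and at most 1 lower. Of the 33 glycolysis and hypoxia genes 1 was higher (Ero1a, 0.17) and 5 were lower (Pfkl, Gapdh, Pgk1, Slc16a3 and P4ha2), with 30 alike, and with the offset 1 was higher and 7 lower. Gapdh and Pgk1 share sequence with copies described below, so their levels depend on how shared reads were divided. In the NF-kB and cytokine list 3 of 32 were higher, namely Cxcl5, Il33 (0.21) and Ptgs2 (0.20), 0 were lower and 26 were alike, but with the length and GC offset 0 were higher and 2 lower.

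The list with the highest median was that of the 13 protein-coding genes of the mitochondrial genome, which code for subunits of respiratory complexes I, III and IV and of ATP synthase. Of these, 11 were higher in relapsed and 1 was lower, beside 1.73% higher and 3.98% lower of all tested genes. Their median log2 fold change was 0.25, and 11 of the 13 were also above 0 with each other scaling. Their summed level was 27363 to 27592 CPM in relapsed and 22476 to 23215 CPM in sgScr, with no overlap. mt-Nd6 (chrM:13552-14070), the gene of a complex I subunit on the minus strand, was at 389.8, 383 and 355 CPM in relapsed and 252, 263 and 271 CPM in sgScr (log2 fold change 0.51, SE 0.05, adjusted p = 1.24e-04, edgeR). mt-Atp6, a subunit gene of ATP synthase, was at 3511, 3446 and 3536 against 2527, 2448 and 2576 CPM (0.47, SE 0.04, adjusted p = 1.17e-05, edgeR). For both genes each relapsed library was above each sgScr library, and both calls held in each of the 6 fits that left out a library, as did those of mt-Nd4 (0.32), mt-Nd5 (0.36) and mt-Co3 (0.30). mt-Nd3 was not called, at 202 to 233 against 202 to 294 CPM. Between 5 and 11 were called higher in the fits that left out a library, the fewest without sgScr replicate 2, 4 with the dispersion shared over 12 libraries and 1 with limma on TPM without a filter, and 7 were higher and 0 lower with the length and GC offset. Control tumours were called above sgIgfbp5 in 6 of the 13 and below it in 1. This stands beside 32.9% higher and 35.7% lower of all genes of that pair. The summed levels there were 28846 to 33012 CPM in control tumours and 19405 to 24921 CPM in sgIgfbp5.

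mt-Atp8, the shortest of these genes, went the other way. It was at 59.1, 70.7 and 92.2 CPM in relapsed and 242, 238 and 187 CPM in sgScr (log2 fold change -1.60, SE 0.20, adjusted p = 0.0246, edgeR), and the call held in 3 of the 6 fits that left out a library (adjusted p up to 0.115, edgeR). Its coding sequence overlaps that of mt-Atp6 on the same strand, and a read from the shared stretch can belong to either gene. The stretch is shown because the values of the 2 genes depend on how its reads were shared out (chrM:7927-7969, plus strand, GRCm38, 43 bases, no capitals):
mt-Atp8 and mt-Atp6 overlap: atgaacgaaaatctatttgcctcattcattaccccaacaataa
The sum of mt-Atp8 and mt-Atp6 was 3517 to 3628 CPM in relapsed and 2686 to 2769 CPM in sgScr, so the pair together was higher in relapsed. mt-Atp6 also shares 99.5% of its 31-base words with Gm10925, a nuclear copy on chromosome 1 that held 0 to 5.77 CPM in the 6 libraries.

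Among respiratory chain genes of the nucleus the calls were in the other direction. Of 33 tested, 0 were higher and 12 lower, 21 were not called, and 25 were alike, with a median of -0.18. Over all tested genes 1.73% were higher and 3.98% lower. Ndufa4 was at 92.5, 96.1 and 89.5 CPM in relapsed and 107, 127 and 129.9 CPM in sgScr (log2 fold change -0.40, SE 0.07, adjusted p = 0.00755, edgeR). The complex I gene Ndufa1 was at 9.77 to 11.4 against 15.0 to 21.4 CPM (-0.73), the complex III gene Uqcrb at 27.8 to 31.5 against 38.9 to 49.2 CPM (-0.53), and the ATP synthase gene Atp5d at 187 to 194 against 215 to 246 CPM (-0.31). No list member kept its call in all 6 fits without a library: without relapsed replicate 1 or 3, or sgScr replicate 2, 0 of the 33 were called, and without sgScr replicate 1 23 were lower. With the length and GC offset the list median was -0.03, with 2 higher and 9 lower, and with limma on log2(TPM + 1) it was -0.07, with 4 lower.

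Cytosolic ribosomal protein genes gave similar counts: of 40 tested, 0 were higher and 9 lower, with 31 alike and a median of -0.22. The shares over all tested genes were 1.73% higher and 3.98% lower. Rps2 was at 2293, 2322 and 2334 CPM in relapsed and 2641, 3130.0 and 3176 CPM in sgScr (-0.37, adjusted p = 0.00749, edgeR), and Rpl8 and Rplp2 were at -0.42 and -0.73. The direction was not stable, since the offset gave 14 higher and 9 lower with a median of 0.03, and 0 of the 40 were called without relapsed replicate 1 or 3 or without sgScr replicate 2. Without sgScr replicate 1 the counts were 1 higher and 31 lower. In both lists sgScr replicate 1 was nearest to the relapsed libraries. The summed ribosomal level was 28466 to 28699 CPM in relapsed and 29255, 33153 and 36534 CPM in sgScr replicates 1, 2 and 3.

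Transcript length went with these values. When the tested genes were split into 10 equal classes by length, the median log2 difference between relapsed and sgScr was -0.18 in the shortest class and 0.10 in the longest. Control tumours minus sgIgfbp5 gave a steeper slope of the same sign, from -0.30 to 0.16. Length also separated the sgScr libraries, with replicate 3 minus replicate 1 at 0.27 in the shortest class and -0.27 in the longest, while relapsed replicates differed by 0.02 or less in size in those 2 classes. Against sgScr replicate 1 alone the relapsed mean was at -0.04 in both the shortest and the longest class, and against replicate 3 at -0.31 and 0.21. Of the genes in the shortest class 13.8% were called lower in relapsed, and of those in the longest 0.281%. The genes called lower had a median length of 1376 bases, those called higher 3209.5 bases, and all tested genes 2485 bases. The part of length in the individual calls was tested only through the offset, with which 317 genes were called higher and 397 lower.

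**Figure D4:**
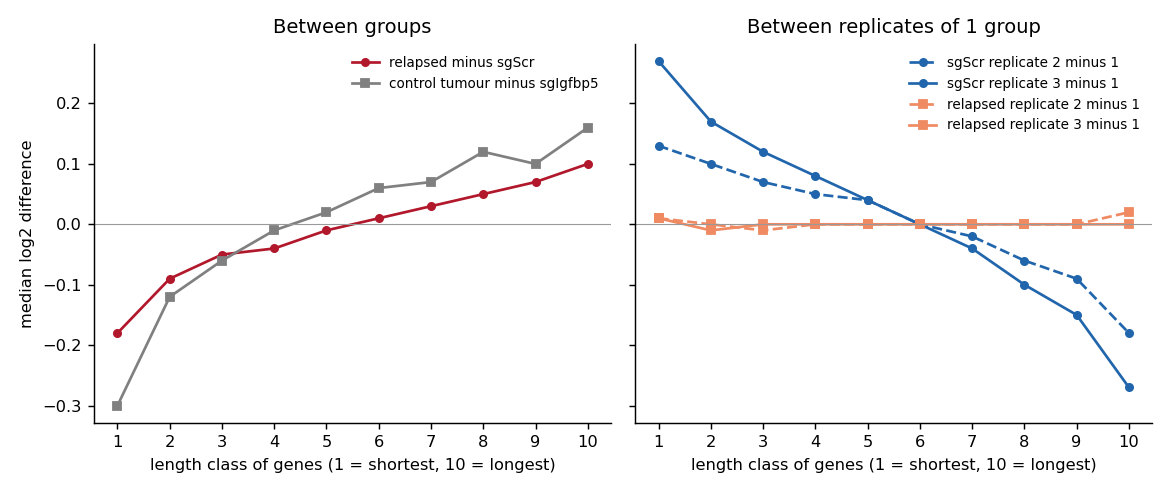
Median log2 difference in each of 10 classes of genes by transcript length (1 is the shortest), between groups (left) and between replicates of 1 group (right). Relapsed minus sgScr rises from -0.18 to 0.10, sgScr replicate 3 minus replicate 1 falls from 0.27 to -0.27, and the relapsed replicates stay near 0.

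Protein-coding genes with the largest calls show how small the differences were on the higher side. Among called genes whose libraries did not overlap and whose mean log2 CPM reached 2, the 12 largest increases were Ftl1-ps1, Taf9, Zfp943, Prrg1, Tlr3, Serpinb2, Fzd4, mt-Nd6, Rps13, mt-Atp6, Samd9l and Macc1, and except for the first of them all lay under 2-fold. Serpinb2 (chr1:107511423-107535478), which codes for an inhibitor of urokinase, was at 10.5, 12.8 and 11.02 CPM in relapsed and 8.005, 6.97 and 8.62 CPM in sgScr (log2 fold change 0.54, SE 0.13, adjusted p = 0.0326, edgeR). Tlr3, the sensor gene of double-stranded RNA, was at 8.50, 8.16 and 6.90 against 5.49, 5.62 and 4.98 CPM (0.54, adjusted p = 0.043, edgeR). The Wnt receptor gene Fzd4 was at 8.65 to 10.7 against 6.02 to 7.59 CPM (0.52), and Macc1, a regulator of the MET receptor gene, at 20.7 to 21.05 against 13.4 to 16.8 CPM (0.46). Samd9l, an interferon-inducible gene, was at 23.2 to 25.02 against 16.1 to 18.7 CPM (0.46). Only 4 of the 12 kept their call without each library (Ftl1-ps1, mt-Nd6, Rps13 and mt-Atp6), and 5 were called with the length and GC offset.

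Against the other cross-table pair, 8 of the 12 differed in the same direction between control tumours and sgIgfbp5, and 2 in the other direction, Fzd4 (-0.70) and Macc1 (-5.44). Macc1 was at 0.0464 to 0.480 CPM in control tumours and 5.78 to 11.1 CPM in sgIgfbp5. For Serpinb2 the direction was the same and the size larger, 2.37, at 0.920 to 1.16 against 0.138 to 0.290 CPM. Over all genes of that pair 32.9% were higher and 35.7% lower. The test of the difference between the 2 cross-table differences called 6 of the 12, close to the 50.6% of all genes.

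The 12 largest decreases were genes of short transcripts, with a median length of 506 bases: Gm20390, Nutf2, mt-Atp8, Tomm7, Snrpf, Hmgn2-ps, Ndufs6, Dpm3, Ndufa3, Cops9, Naa38 and Uqcr11. Tomm7 (chr5:23838944-23844161), a small subunit gene of the mitochondrial import pore, was at 10.3, 10.6 and 10.03 CPM in relapsed and 21.7, 26.6 and 40.7 CPM in sgScr (log2 fold change -1.53, SE 0.23, adjusted p = 0.0179, edgeR). Ndufs6, of complex I, was at 11.4, 14.4 and 15.5 against 25.5, 29.9 and 41.1 CPM (-1.23, adjusted p = 0.0142, edgeR), and Snrpf, of the spliceosome core, at 26.6 to 28.3 against 46.3 to 86.4 CPM (-1.32). In each of the 3 the relapsed libraries lay close together, and among the sgScr libraries replicate 1 was the lowest and replicate 3 the highest. Dpm3, of dolichol phosphate mannose synthase, Ndufa3, Cops9, Naa38 and Uqcr11 lay between -1.13 and -1.02. Of the 12, 0 kept their call without each library, 11 were called with the length and GC offset, and 11 were also lower in control tumours than in sgIgfbp5. Over all genes of that pair 35.7% were lower, and its shortest length class had a median log2 difference of -0.30. Tomm7 was at 6.93 to 9.56 CPM in control tumours and 45.9 to 61.5 CPM in sgIgfbp5.

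A smaller set of differences did not rest on any 1 library. Called in the full fit and again, with the same sign, without each of the 6 libraries were 42 genes (0.295%), 15 higher and 27 lower. They are given here as a group, and those named were chosen after their values were seen. Of the 42, 24 were protein-coding, 37 were called with the length and GC offset, and 18 shared at least 50% of their 31-base words with another gene, beside 4.71% of the tested genes that could be searched.

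Hnrnpa1 (chr15:103240432-103246692), which packages and splices pre-mRNA, was at 579, 585 and 587 CPM in relapsed and 798, 865 and 916 CPM in sgScr (log2 fold change -0.57, SE 0.05, adjusted p = 4.45e-05, edgeR). Hnrnpa1 shares 29.3% of its 31-base words with other genes, nearly all of them with the copy Gm10052 described below, so its level depends on how shared reads were divided. Taf15, which codes for a factor associated with the TATA-binding protein and shares 0% of its words, was at 49.3, 53.1 and 51.8 against 72.0, 70.3 and 79.4 CPM (-0.53, adjusted p = 0.0011, edgeR). Both were lower in each relapsed library than in each sgScr library. Between control tumours and sgIgfbp5 their log2 fold changes were -0.63 and -0.31.

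Lars2, the gene of the mitochondrial leucyl tRNA synthetase, was at 212, 193 and 196 CPM in relapsed and 313, 341 and 354 CPM in sgScr (-0.76, adjusted p = 9.00e-06, edgeR). Slc16a3, the lactate exporter gene, was at 457, 457 and 467 against 548, 587 and 591 CPM (-0.33, adjusted p = 0.00144, edgeR). The TWEAK receptor gene Tnfrsf12a was at 141, 135 and 144 against 188, 224 and 229.8 CPM (-0.62, adjusted p = 4.89e-04, edgeR), and the ribosomal gene Rpl28 at 133 to 146 against 205 to 268 CPM (-0.84). Ap3m1, of the AP-3 coat of endosomes, was higher, at 137, 138 and 142 against 110.2, 104 and 105 CPM (0.38, adjusted p = 0.00161, edgeR). Gm44510, a transcript on chromosome 7 whose coding status the table leaves undetermined, was at 23.1, 22.4 and 23.4 against 9.44, 8.51 and 7.28 CPM (1.44), the largest increase of the set outside the pseudogenes.

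Rn18s-rs5, listed as ribosomal RNA, was at 759.9, 686 and 719 CPM in relapsed and 2462, 1931 and 2316 CPM in sgScr (log2 fold change -1.64, SE 0.09, adjusted p = 2.99e-04, edgeR). It was also at 546 to 925 CPM in control tumours and 2488 to 3229.6 CPM in sgIgfbp5. Both CUUC-G groups were thus above both tumour groups for this gene, as they were for Tomm7 and Snrpf, in libraries made from poly(A)-selected RNA.

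Of the 42 genes 41 were tested in control tumours against sgIgfbp5. There 32 were called in the same direction and 1 in the other, Slc16a3 (0.50), beside the 32.9% higher and 35.7% lower of all genes. The difference between the 2 cross-table differences was called for 16 of the 42, a smaller share than the 50.6% of all genes, among them Lars2 (1.68), Ap3m1 (-1.17), Slc16a3 (-0.85) and Fis1, a mitochondrial fission gene (1.06).

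Many of the largest differences lay in near-identical copies of other genes. Of the 43 genes called with a fold of at least 2, 18 were protein-coding and 9 had no count at all in one of the groups. At least 50% of the 31-base words were shared with another gene in 16 of the 43, and 3 could not be searched. Among the tested genes that could be searched the share was 4.71%. All 9 were processed pseudogenes, which are intronless copies of a mature mRNA. Quantifying tools must share out reads that fit the copy and its parent gene equally well, so the level of the copy is uncertain. The sequences below show how little separates a copy from its parent: 120 bases of each, 5′ to 3′, with capitals for the bases that differ between the 2 (GRCm38, GENCODE M21). The copies are unspliced stretches, and the windows of Hnrnpa1, Rps12, Rps27a and Pcnp are spliced from exons within the span given.
Gm10052 (chr9:123690073-123690192, minus strand): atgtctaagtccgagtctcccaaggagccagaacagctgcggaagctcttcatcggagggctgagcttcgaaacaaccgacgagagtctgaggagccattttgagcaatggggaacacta
Hnrnpa1 (chr15:103240514-103241184, plus strand): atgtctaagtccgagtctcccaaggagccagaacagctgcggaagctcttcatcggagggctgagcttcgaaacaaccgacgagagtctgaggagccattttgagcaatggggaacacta
Rps12-ps3 (chr19:59322371-59322490, plus strand): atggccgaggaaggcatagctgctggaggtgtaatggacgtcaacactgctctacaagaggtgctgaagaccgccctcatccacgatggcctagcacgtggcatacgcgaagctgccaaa
Rps12 (chr10:23786775-23787007, minus strand): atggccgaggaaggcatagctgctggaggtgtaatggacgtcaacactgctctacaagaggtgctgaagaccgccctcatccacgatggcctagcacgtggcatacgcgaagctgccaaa
Rps27a-ps2 (chr9:83409915-83410034, plus strand): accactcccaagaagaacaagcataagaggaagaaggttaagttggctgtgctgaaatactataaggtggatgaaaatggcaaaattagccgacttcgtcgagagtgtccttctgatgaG
Rps27a (chr11:29545976-29546356, minus strand): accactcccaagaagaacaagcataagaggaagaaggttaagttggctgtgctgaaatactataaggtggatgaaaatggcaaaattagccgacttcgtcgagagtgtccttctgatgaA
Gm7887 (chr6:48524648-48524767, minus strand): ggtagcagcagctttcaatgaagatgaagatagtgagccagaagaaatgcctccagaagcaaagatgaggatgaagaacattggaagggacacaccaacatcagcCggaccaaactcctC
Pcnp (chr16:56017285-56022085, minus strand): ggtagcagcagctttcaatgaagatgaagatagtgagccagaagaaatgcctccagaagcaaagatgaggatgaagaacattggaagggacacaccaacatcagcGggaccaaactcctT
Ftl1-ps1 (chr13:74406988-74407107, plus strand): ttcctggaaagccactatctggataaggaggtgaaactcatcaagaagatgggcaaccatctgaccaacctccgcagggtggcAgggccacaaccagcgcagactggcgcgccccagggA
Ftl1 (chr7:45458155-45458274, minus strand): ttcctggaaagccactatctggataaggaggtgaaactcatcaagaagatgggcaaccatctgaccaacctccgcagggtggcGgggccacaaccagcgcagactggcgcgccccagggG

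Over the whole aligned coding stretch, Gm10052 was identical to Hnrnpa1 (960 bases) and Rps12-ps3 to Rps12 (396 bases). Rps27a-ps2 was 99.8% identical to Rps27a over 467 bases, Gm7887 99.6% to Pcnp over 534 and Ftl1-ps1 99.6% to Ftl1 over 549.

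Gm10052 was at 114, 116 and 103 CPM in relapsed and without a count in the 3 sgScr libraries, at least 2154-fold higher against a floor of 3 counts over the group. It was at 41.2 to 76.9 CPM in the control tumours and at 0 in all 3 sgIgfbp5 libraries, so the tables differed and the groups within a table did not in being present or absent. Its parent Hnrnpa1 was lower in relapsed (above), and the sum of copy and parent was 690.5 to 700.4 CPM in relapsed and 798 to 916 CPM in sgScr. The sum thus differed in the same direction as Hnrnpa1 itself, by less.

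The ribosomal copy Rps12-ps3 went the other way, at 0 in all relapsed and control libraries and at 84.0, 80.7 and 119 CPM in sgScr and 232 to 327 CPM in sgIgfbp5. It was at least 1884-fold lower in relapsed, while the sum with Rps12 was 990.2 to 1036 CPM in relapsed and 1023 to 1192 CPM in sgScr, which overlapped. Rps27a-ps2 was at 66.99, 75.5 and 67.5 CPM in relapsed and 0 in sgScr (at least 1358-fold), and its sum with Rps27a overlapped too, at 624 to 661 and 648 to 787 CPM. Gm7887 was at 0 in relapsed and 6.98, 5.28 and 8.30 CPM in sgScr (at least 136-fold), and its sum with Pcnp was 147 to 153 and 137 to 145 CPM.

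The remaining 5 copies without a count in one of the groups were Gm10163 (at least 927-fold higher in relapsed), Pgk1-rs7 (at least 693-fold higher), Idi1-ps1 (at least 122-fold higher), Gm9762 (at least 82.9-fold lower) and Apoo-ps (at least 79.1-fold higher). In 4 of the 9 (Gm10052, Rps12-ps3, Idi1-ps1 and Pgk1-rs7) the other group of the same table was at 0 as well. Of these 4, Idi1-ps1 was at 0, 1.17 and 0 CPM in the control tumours and Pgk1-rs7 at 0, so neither followed the table closely. Pgk1-rs7 is the clearest case of a copy that did not follow the table: it was at 25.7, 45.4 and 36.0 CPM in relapsed and at 0 in the other 9 mouse libraries. The sum with Pgk1 was 1551 to 1596 CPM in relapsed and 1629 to 1805 CPM in sgScr. This sum leaves out Gm5537, another copy of Pgk1, at 129, 121 and 109 CPM in relapsed and 18.99, 0 and 0 CPM in sgScr. Whether Pgk1 with all its copies differed was not tested.

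Ftl1-ps1, a ferritin light chain copy that the table lists as protein-coding, was at 29.9, 30.8 and 40.4 CPM in relapsed and 13.4, 12.5 and 13.0 CPM in sgScr (log2 fold change 1.37, SE 0.12, adjusted p = 4.45e-05, edgeR). Ftl1 itself was at 2845, 2746 and 2723 against 3047, 3468 and 3666 CPM (-0.30), and the sum at 2764 to 2875 against 3060.2 to 3679 CPM, so the copy and the sum differed in opposite directions. For Rps13 it was the parent that differed from the sum: the parent was higher (0.50) and its copy Rps13-ps2 lower (-1.11), and the sum was 338 to 354 CPM in relapsed and 356 to 457 CPM in sgScr. Of the 16 large differences in shared sequence, 14 were tested in control tumours against sgIgfbp5, and there 11 were called in the same direction and 0 in the other, beside the 32.9% higher and 35.7% lower of all genes.

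**Figure D5:**
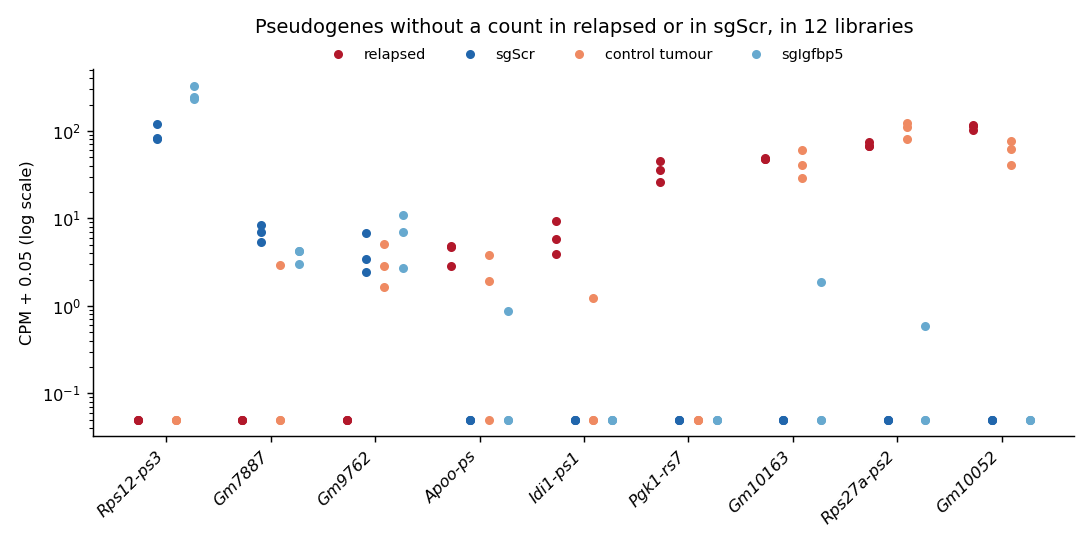
Levels, as CPM + 0.05 on a log axis, of the 9 pseudogenes without a count in relapsed or in sgScr, in the 12 mouse libraries; points are libraries. Gm10052, Gm10163 and Rps27a-ps2 are high in both tumour groups and at or near 0 in both CUUC-G groups, Rps12-ps3 is the reverse, and Pgk1-rs7 is present in relapsed alone.

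The most abundant transcripts per length were alike or nearly so. The 6 nuclear protein-coding genes with the highest mean TPM, a level scaled by length, over the 6 libraries were Rplp1, Fth1, Eef1a1, Ftl1, Gapdh and Lgals1, and 5 of them were alike. Among these 5, Ftl1 was also called lower in relapsed (-0.30, adjusted p = 0.0142, edgeR). The translation factor gene Eef1a1 was at 9683, 9738 and 9612 CPM in relapsed and 9018, 9328 and 9742 CPM in sgScr (log2 fold change 0.04, 95% interval -0.03 to 0.11). The ferritin heavy chain gene Fth1 was at 3714 to 3761 against 3543 to 4049.7 CPM (-0.04). Gapdh, of glycolysis, was the exception, at 3858, 3833 and 3813 against 4355, 5318 and 5576 CPM (-0.41, SE 0.08, adjusted p = 0.0343, edgeR), a call that held in 1 of the 6 fits that left out a library. Gapdh shares 27.2% of its 31-base words with other genes, and it was also lower in control tumours than in sgIgfbp5 (-0.91). Its copy Gm12671 leaned the other way, at 695, 564 and 279 CPM in relapsed against 111, 86.6 and 0 CPM in sgScr, and was not called. The level of Gapdh thus depends on how shared reads were divided, and whether Gapdh with its copies differed was not tested.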

How the data were processed

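Poly(A)-selected RNA was sequenced after a stranded mRNA library kit, per the labels' protocols. Salmon, GRCm38 (mm10) and GRCh38 (hg38) are named without a role or version in the submitters' processing notes. The authors deposited estimated counts and TPM for 147828 transcripts of the tumours, summed here to 55858 genes, and for the same genes of CUUC-G; the deposited estimated counts were rounded to whole numbers. TPM values as deposited by the authors entered only an alternative and the ranking of abundant genes. CUUC-G columns marked mI were taken as sgIgfbp5, since the labels mark IGFBP5-targeted human libraries with hI. The number of columns matched to no sample was 0. Positions, sequences and shared 31-base words came from GENCODE M21 (GRCm38), which held 51460 of the identifiers without their version and 35 with it, so the authors used another release. Transcript lengths came from the tumour table, weighted by the authors' TPM.

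The test was edgeR 4.0.16 in R 4.3.3 (quasi-likelihood F, TMM, filterByExpr, robust dispersion, two-sided, Benjamini-Hochberg, threshold 0.05) on the libraries of each comparison. In counts simulated from the fit of relapsed against sgScr, it recovered 16, 31, 37 and 47 of 50 genes changed 1.25-, 1.5-, 2- and 4-fold. It called 17 of 13839 unchanged genes there. Standard errors were the absolute log2 fold change over the square root of F. Folds against a group without counts used a floor of 3 counts over the group, which covers counting error only. Alternatives were DESeq2 1.42.0, limma 3.58.1 on log2(TPM + 1), other scalings, filters and features, a replicate block, and each library left out; the length and GC offset and the fit without genes sharing sequence were chosen after seeing the data. Group members, gene lists and tests were chosen with earlier results of these data known. Named genes were the 12 largest increases and decreases among called, non-overlapping protein-coding genes with a mean log2 CPM of at least 2; up to 4 called members of the lists with the largest share called at 1.5-fold, of which 5 lists had any; the 8 genes furthest apart in each direction between relapsed and control tumours; Igfbp5 and 6 genes of its list; Y-linked genes and Xist; and the 6 most abundant genes by TPM. Of the list symbols, 24 were matched by an older name. The same replicate number did not mark paired libraries. Some genes of these sets are not reported here.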

Additional observations from a re-analysis of the deposited data

Results flagged for a closer look

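For 23 of the named genes the difference between relapsed tumours and the sgScr line was itself different from that between control tumours and the sgIgfbp5 line. The measure is the log2 difference of relapsed minus sgScr, less that of control tumour minus sgIgfbp5, with an adjusted p under 0.05 in edgeR's quasi-likelihood test on the 12 libraries. The test called 7774 of 15366 genes in this way, so such a call is common.

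Genes with a negative value, where relapsed minus sgScr was the smaller number, were Serpinb2 (-1.85), Igfbp6 (-1.33), mt-Atp8 (-1.18), Htra1 (-1.11), Stc2 (-0.79), Prrg1 (-0.71), Samd9l (-0.58) and mt-Nd5 (-0.34). In Serpinb2, Prrg1, Samd9l and mt-Nd5 both differences were above 0 and the one between control tumours and sgIgfbp5 was larger.

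Genes with a positive value were Macc1 (5.87), H3c3 (1.32), Fzd4 (1.20), Mt1 (1.17), Ndufs6 (1.10), Tomm7 (1.06), Insr (0.94), Naa38 (0.94), Igfbp4 (0.76), Ndufa4 (0.71), Ndufa1 (0.67), Rplp2 (0.63), Rps2 (0.52), Rps13 (0.47) and Atp5d (0.45). For the respiratory chain and ribosomal genes Ndufs6, Ndufa4, Ndufa1, Atp5d, Rps2 and Rplp2 both differences were below 0, and the fall from sgIgfbp5 to control tumours was the larger. Macc1 and Fzd4 were higher in relapsed than in sgScr and lower in control tumours than in sgIgfbp5. H3c3, a replication-dependent histone gene, was at 1.52, 1.76 and 1.64 CPM in relapsed and 3.23, 2.59 and 3.43 CPM in sgScr, a call at an adjusted p of 0.0388 in edgeR.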

How the results depend on the processing

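The number of alike genes, 10245, fell to 6107 when the interval had to lie within a 25% increase or its inverse. The 247 higher and 567 lower genes became 520 and 1083 without a low-count filter, 60 and 321 with the dispersion shared over 12 libraries, and 17 and 94 with a fold of at least 1.5. limma on log2(TPM + 1) gave 48 and 92, with a pseudocount of 0.1 it gave 49 and 88, and with no TPM filter 11 and 19. At 2-fold or more, the 13 higher and 30 lower genes became 7 and 18 with DESeq2 and 40 and 69 without a filter. limma with no filter gave 7 and 9, limma with a pseudocount of 0.1 gave 18 lower, protein-coding genes alone gave 3 and 15, genes of similar implied length gave 6 higher, and the fit without genes sharing sequence 6 higher. Leaving out each library gave 18 to 1525 higher, 34 to 1852 lower, 9 to 47 and 10 to 57 at 2-fold, and 9697 to 10169 alike. For control tumours against sgIgfbp5 these ranges were 4392 to 5103 higher and 4701 to 4877 lower, with 3365 lower in limma on log2(TPM + 1); for the difference of the differences they were 3254 to 3511 and 3924 to 4271. With the replicate number as a block 153 genes were higher and 508 lower in relapsed; the correlation of same-numbered libraries was 0.015, 0.02 and -0.049, so the numbers do not pair them. Among the named genes Ndufa4 (0.13) and Rplp2 (0.02) changed sign in limma on TPM with either pseudocount and with no filter, and Atp5d (0.01) with the length and GC offset. The cause of these changes was not tested. Genes of a few CPM had wide intervals, as Igfbp5 at -0.37 to 1.05, where counting error and the spread of 1.03 to 2.54 CPM among sgScr libraries were not told apart.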

Other observations

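Besides the genes called, 9 genes with a mean log2 CPM of at least 2 differed by a fitted fold of at least 4 without passing the test, and 9 of the 9 shared at least 50% of their 31-base words with another gene. They are named here after their values were seen. Gm12671, a copy of Gapdh, was at 695, 564 and 279 CPM in the relapsed replicates and 111, 86.6 and 0 CPM in sgScr. Gm5537, a copy of Pgk1, was at 129, 121 and 109 CPM in relapsed and 18.99, 0 and 0 CPM in sgScr, and Rpl10-ps1 at 385, 352 and 329.7 against 126, 56.5 and 69.3 CPM. Gm8203 was at 0 in the 3 relapsed libraries and at 31.7, 38.9 and 66.5 CPM in sgScr.

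Nuclear copies of mitochondrial genes on chromosome 1 were nearly empty in most libraries. Gm28439, a copy of mt-Nd4, was at 0, 56.2 and 0 CPM in relapsed and 48.7, 0 and 0 CPM in sgScr, next to mt-Nd4 at 1756 to 1854 and 1424 to 1446 CPM. Gm28437, a copy of mt-Co3, was at 0 in all 12 mouse libraries.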
